A study of Mus musculus with 2 samples.

Results

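Elastic fibre and microfibril genes were followed through mouse dorsal skin in a model of atopic dermatitis (AD). The group holds 10 of the 33904 genes counted in both libraries, found by their symbols: Eln, Fbn1, Mfap2, Mfap4, Mfap5, Fbln1, Fbln2, Fbln5, Emilin1 and Lox. They were listed by function, and no cell gate used here contains any of them. Single-cell RNA-seq (10x Genomics 3′ chemistry) was done on 1 Ctrl library and 1 AD library. Both came from female C57BL/6J mice of 7 weeks, depilated with Nair a day before the first application on an area of 2 cm by 2 cm. Ctrl skin received ethanol alone, while AD skin received MC903 (calcipotriol, a vitamin D analogue that provokes AD-like dermatitis) in ethanol at 4.5 nmol per application, daily up to day 10, when both were collected. The sources used here do not give the number of mice behind each library.

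Elastic fibres let skin and vessel walls recoil after stretch. Their core is cross-linked elastin, laid down on a scaffold of fibrillin microfibrils that carry microfibril-associated glycoproteins (MAGPs). Fibulins and emilin sit between elastin and the scaffold, and lysyl oxidase forms the cross-links that make elastin insoluble. In skin, dermal fibroblasts are known as the main makers of these proteins, and cells of vessel walls make them as well.

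All members are protein-coding genes, with positions from GENCODE M21 on GRCm38. Eln lies on chromosome 5 from 134702593 to 134747323 (minus strand), Emilin1 on chromosome 5 from 30913402 to 30921277 (plus strand) and Fbn1 on chromosome 2 from 125300594 to 125507993 (minus strand). Mfap2 lies on chromosome 4 from 141010418 to 141015984, Mfap4 on chromosome 11 from 61485431 to 61488900 and Mfap5 on chromosome 6 from 122505845 to 122529290, all on the plus strand. Fbln1 spans 85205949 to 85286535 of chromosome 15 and Fbln2 spans 91212455 to 91272540 of chromosome 6, both on the plus strand. Fbln5 (chromosome 12, 101746565 to 101819055) is on the minus strand, and the position of Lox is given with its values.

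Bases before a RefSeq transcript start (GRCm38.p6) were at hand for 6 members, and are shown for the 3 members with a start whose upstream bases lie outside the GENCODE gene. They are shown because the agent applied acts through the vitamin D receptor, a nuclear receptor that binds paired 6-base half-sites. Each is printed 5′ to 3′ in the direction of transcription and ends at or just before the start site. Capitals mark matches on either strand to the half-sites AGGTCA or AGTTCA or GGTTCA, or to the TATAAA or CCAAT or GGGCGG boxes of basal promoters, none of which overlapped another in these windows.
Fbln5, chr12:101819120-101819369, minus strand: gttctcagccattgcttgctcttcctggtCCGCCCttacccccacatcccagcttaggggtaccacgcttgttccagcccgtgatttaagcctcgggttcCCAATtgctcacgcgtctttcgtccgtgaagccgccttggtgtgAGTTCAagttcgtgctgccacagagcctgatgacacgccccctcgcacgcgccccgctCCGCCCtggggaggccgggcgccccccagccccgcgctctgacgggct
Mfap2, chr4:141010174-141010417, plus strand: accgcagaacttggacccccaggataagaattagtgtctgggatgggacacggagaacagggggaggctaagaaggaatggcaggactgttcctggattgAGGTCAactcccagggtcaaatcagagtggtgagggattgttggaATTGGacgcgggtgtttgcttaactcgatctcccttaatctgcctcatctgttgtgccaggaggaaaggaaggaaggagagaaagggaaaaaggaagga
Fbln1, chr15:85205699-85205948, plus strand: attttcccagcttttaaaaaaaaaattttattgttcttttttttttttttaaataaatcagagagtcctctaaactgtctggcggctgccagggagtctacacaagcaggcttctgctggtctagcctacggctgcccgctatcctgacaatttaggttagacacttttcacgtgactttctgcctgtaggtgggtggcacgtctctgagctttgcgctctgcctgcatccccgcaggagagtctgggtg
The Fbln5 window held 1 AGTTCA, 1 CCAAT and 2 GGGCGG (read on the other strand), and the Mfap2 window held 1 AGGTCA and 1 CCAAT. The Fbln1 window held none of the 6 motifs. Such letters are common. Among 32841 RefSeq windows, each searched over the 250 bases before a start, AGGTCA occurred in 14.0%, AGTTCA in 11.8% and GGTTCA in 8.84%. TATAAA occurred in 12.4%, CCAAT in 33.9% and GGGCGG in 32.7%. A match is a run of letters and not a binding site.

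The 11399 Ctrl cells kept held a median of 7813 UMIs (distinct transcript molecules) and the 8179 AD cells a median of 6330. Pdgfra-positive fibroblasts were cells with at least 1 UMI of Pdgfra and none of Ptprc, Pecam1, Dsp, Rgs5 or Sox10, which gave 4513 Ctrl cells (median 8782 UMIs) and 4676 AD cells (median 6839 UMIs). Levels are given as CPM, the summed UMIs of a gene scaled to counts per 1e+06 UMIs of the same cells. With 1 library per condition no test was possible, and every interval in parentheses is a 95% interval of counting error only, exact Poisson for levels, exact binomial for ratios and Clopper-Pearson for shares. The gates carried their own markers, since the sum of Col1a1, Col1a2, Col3a1, Dcn and Lum was 50081 CPM in Ctrl fibroblasts and 11125 CPM in AD fibroblasts, against 2144 and 235 CPM in T cells. These general fibroblast genes were thus also lower in AD, Col1a1 going from 11685 to 754 CPM and Dcn from 12302 to 8348 CPM. A list of smooth muscle and pericyte genes stood at 492 CPM for Ctrl and 14.3 CPM for AD fibroblasts, and erythroid genes at 763 and 325 CPM. The part of any of these lists in the results was not tested. The libraries shared 35 barcodes. When all cells were clustered without the members, the fibroblasts of the libraries hardly mixed, since 10 of 11 fibroblast clusters drew at least 95% of their cells from 1 library and held 98.4% of the clustered fibroblasts, against 4 of 25 clusters and 14.9% for other cells. Condition and library cannot be told apart in these values.

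In fibroblasts, 9 of the 10 members were lower in AD than in Ctrl, and Lox was higher. The difference was at least 2-fold for 6 members on the lower side and for 1 on the higher side, where 12.2% of the 7024 genes compared were at least 2-fold lower and 7.65% at least 2-fold higher. The median log2 ratio of AD over Ctrl (with 1 CPM added) was −1.74 over the members and −0.04 over all genes compared. By that ratio, Mfap4 ranked 7 from the lowest end and Lox 76 from the highest end. Under 12 other ways of choosing cells or scaling, each of the 10 ratios kept its sign.

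**Figure D1:**
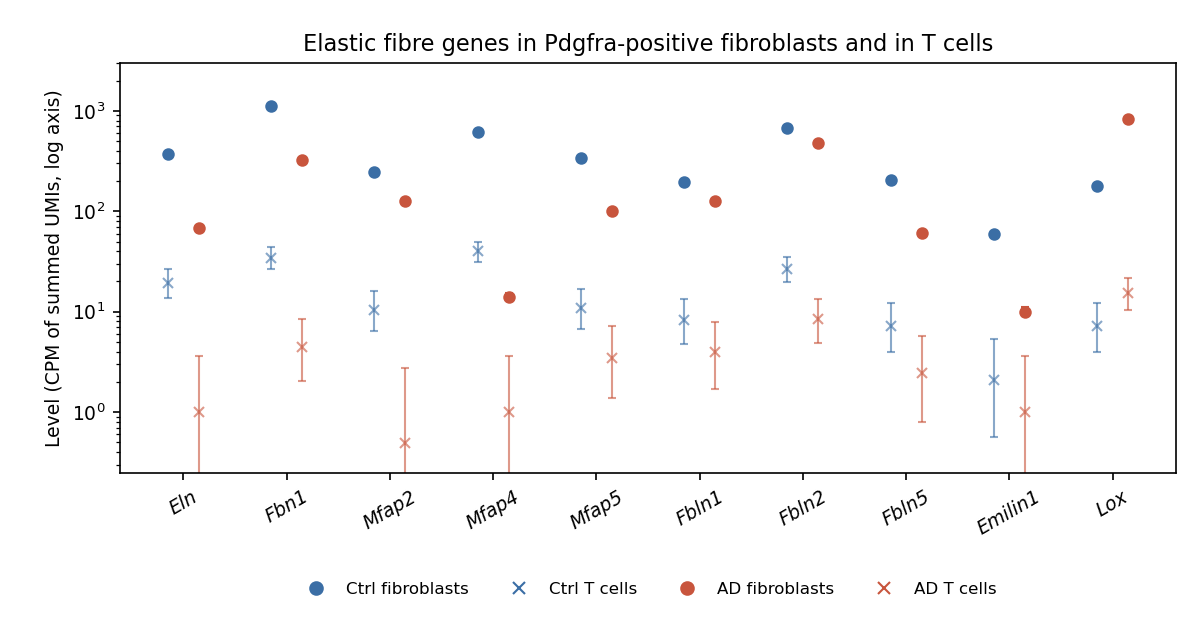
Levels of the 10 members in CPM (log axis) in Pdgfra-positive fibroblasts (circles) and T cells (crosses) of the Ctrl library (blue) and the AD library (red), with bars for 95% Poisson intervals. AD lies below Ctrl in fibroblasts for each member except Lox, which goes from 177 to 822 CPM, and the Mfap4 level of AD fibroblasts (14.1 CPM) is below that of Ctrl T cells (40.0 CPM).

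Elastin itself was among the lower genes. Eln, which encodes the soluble precursor of the elastic core, stood at 368 CPM in Ctrl fibroblasts (15743 UMIs, 363 to 374) and at 68.9 CPM in AD fibroblasts (2470 UMIs, 66.2 to 71.7). The log2 ratio was −2.42 (−2.48 to −2.36), a level 5.35-fold lower in AD. An Eln UMI was found in 64.4% of Ctrl and 21.9% of AD fibroblasts, or 23.8% and 4.52% after each cell was thinned to 1000 UMIs. Both the level and the share of cells were thus lower at equal depth, where the thinned T cells had 1.77% in Ctrl and 0 of 326 cells in AD, which allows a share of cells with a UMI of up to 0.92% (taken as 3 cells), or 1.13% by the Clopper-Pearson interval.

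Microfibril genes differed in how far they were lower. Fbn1, encoding fibrillin-1, the backbone of the microfibril, stood at 1116 CPM (1106 to 1126) for Ctrl against 324 CPM (318 to 330) for AD, with log2 ratio −1.78. Mfap2 and Mfap5 encode the glycoproteins MAGP1 and MAGP2 that decorate fibrillin. Mfap2 went from 248 CPM (243 to 252) down to 127 CPM (123 to 131), log2 ratio −0.96, just short of 2-fold, and from −1.04 to −1.10 under 3 of the 12 alternatives. Mfap5 went from 339 CPM (333 to 344) down to 101 CPM (97.9 to 104), log2 ratio −1.74. The pair of MAGP genes was therefore lower by unequal factors, 1.95-fold for Mfap2 and 3.35-fold for Mfap5.

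Mfap4 showed the widest difference of the 10 members. It encodes a fibrinogen-related glycoprotein that binds elastin and fibrillin microfibrils. Its level was 622 CPM among Ctrl cells (26580 UMIs, 615 to 630) against 14.1 CPM for AD (507 UMIs, 12.9 to 15.4). The log2 ratio was −5.46 (−5.59 to −5.33), a 44.0-fold lower level. At 1000 UMIs per cell, 27.5% of Ctrl fibroblasts and 1.28% of AD fibroblasts held an Mfap4 UMI, and in T cells 3.36% and 0 of 326. The AD level of Mfap4 still lay above that of AD T cells, 0.991 CPM (0.120 to 3.58).

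The 3 fibulins were all lower, by unequal factors. Fbln5, encoding the fibulin that tethers elastin to cells and microfibrils, went from 207 CPM (202 to 211) down to 61.1 CPM (58.6 to 63.7), log2 ratio −1.76. The value was −0.93 when the levels of the fibroblast subsets were weighted by the subset shares of Ctrl, but 51.6% of that AD level came from the 55 AD cells of the Wif1/Hhip/Rspo3 subset, and without that subset it was −1.84. Fbln1, which encodes a fibulin found within elastic fibres and basement membranes, went from 195 CPM (191 to 199) down to 126 CPM (122 to 130), log2 ratio −0.63. Fbln2, whose product binds fibrillin and elastin precursors, went from 670 CPM (662.5 to 678) down to 477 CPM (470 to 484), log2 ratio −0.49. Fbln1 and Fbln2 were lower by less than 2-fold, although Fbln1 passed 2-fold under that weighting (−1.05, with or without the subset) and with every cell thinned to 1000 UMIs (−1.03). Fbln2 was found in 75.4% of AD fibroblasts against 92.8% of Ctrl fibroblasts, or 30.7% against 44.8% at 1000 UMIs per cell.

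Emilin1, the gene of a glycoprotein at the interface of elastin and microfibrils, went from 59.3 CPM (2532 UMIs, 57 to 61.6) to 10.0 CPM (359 UMIs, 9.01 to 11.1). The log2 ratio was −2.56 (−2.73 to −2.40). Lox differed the opposite way. The gene lies on chromosome 18 from 52516067 to 52529867 (minus strand). It encodes lysyl oxidase, the enzyme that starts cross-links in elastin and fibrillar collagen, and it stood at 177 CPM (7576 UMIs, 173 to 181) for Ctrl against 822 CPM (29461 UMIs, 813 to 831) for AD. The log2 ratio was 2.21 (2.18 to 2.25), a 4.64-fold higher level. A Lox UMI was found in 52.5% of Ctrl and 82.9% of AD fibroblasts although the AD cells were shallower, and in 13.9% and 43.7% at 1000 UMIs per cell.

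Some RNA of other cells reaches every droplet, so T cells served as background. There the members ranged from 2.08 CPM (Emilin1) to 40.0 CPM (Mfap4) in Ctrl and from 0.495 CPM (Mfap2) to 15.4 CPM (Lox) in AD. Shares of T cells with a UMI ranged from 0.699% (Emilin1) to 8.57% (Mfap4) in Ctrl and from 0.305% (Mfap2) to 6.71% (Lox) in AD, at median depths of 2980 and 5311 UMIs. As a part of the fibroblast level of the same library, the T cell level of Eln was 5.22% in Ctrl and 1.44% in AD. Each member was above the T cell level of its library in fibroblasts.

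**Figure D2:**
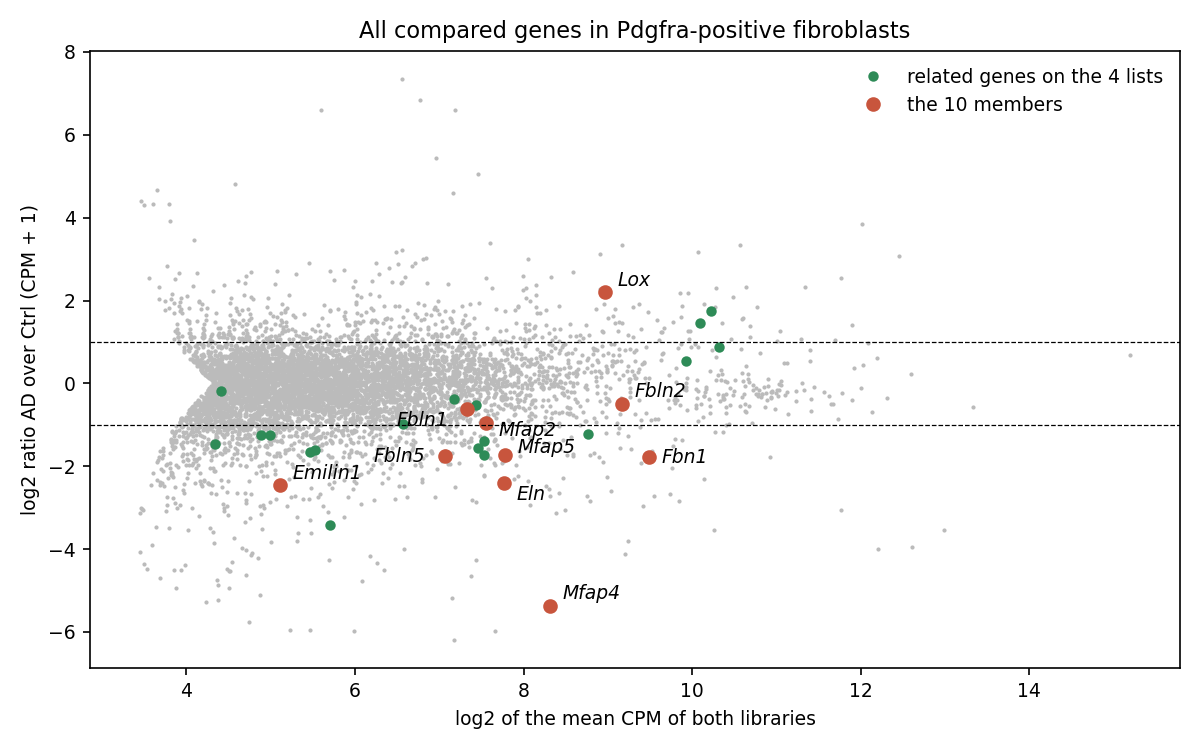
Each point is 1 of the 7024 genes compared in Pdgfra-positive fibroblasts, by the log2 of its mean CPM and the log2 ratio of AD over Ctrl (with 1 CPM added), with the 10 members in red, related genes of the 4 lists in green and dashed lines at 2-fold. Most grey points lie near 0 (median −0.04), while Mfap4 is at −5.36 and Lox at 2.21.

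Genes that work alongside the members were taken from 4 lists. The assembly relatives are further fibrillins, fibulins, latent TGF-β binding proteins and emilins, and 5 of the 7 that reached 20 CPM in a library were at least 2-fold lower in AD and none higher, against the 12.2% and 7.65% of all genes given above. Fbn2, the second fibrillin, went from 96.1 CPM (93.2 to 99.1) to 8.04 CPM (7.13 to 9.02). Efemp2, which encodes fibulin-4 and is needed for elastin assembly, went from 69.7 to 22.2 CPM, and its relative Efemp1 from 610 to 260 CPM. Ltbp3 went from 67.7 to 20.8 CPM, Ltbp4 from 127 to 63.6 CPM and Emilin2 from 205 to 142 CPM. Most of the scaffold relatives were thus on the lower side, with Ltbp4 and Emilin2 within 2-fold.

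Of the lysyl oxidase relatives, 2 of 3 compared were at least 2-fold lower (12.2% of all genes) and none higher (7.65%). Loxl1, which acts on elastin with fibulin-5, went from 267 CPM (262 to 272) to 102 CPM (98.4 to 105). Loxl2 went from 286 to 85.0 CPM, and Loxl4 from 22.7 to 19.8 CPM. The direction of Lox was therefore not seen in any of the 3 relatives compared. Of the ADAMTS and ADAMTS-like genes linked to microfibrils, 3 of 4 were at least 2-fold lower (12.2% of all genes). Adamtsl4 went from 30.1 to 10.3 CPM, Adamtsl5 from 45.3 to 18.4 CPM and Adamts10 from 42.1 to 17.0 CPM, and Adamtsl1 from 163 to 126 CPM.

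The 4 genes that could be compared from a list around elastin breakdown were higher in AD fibroblasts. Ctsk, encoding cathepsin K, went from 551 CPM (544 to 558) to 1845 CPM (1831 to 1859), and Ctsl, encoding cathepsin L, from 581 CPM (574 to 588) to 1598 CPM (1585 to 1611). Mmp2, a gelatinase, went from 903 to 1653 CPM, and Mmp14, a membrane-bound activator of Mmp2, from 796 to 1156 CPM. Of these 4 genes, 2 were at least 2-fold higher (7.65% of all genes) and none was at least 2-fold lower (12.2%). The elastases Mmp12 and Elane were close to absent from fibroblasts, with 7 and 1 UMIs in Ctrl and 20 and 5 UMIs in AD.

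Fibroblasts were then divided by short marker lists into a Dpp4 subset (1084 Ctrl and 435 AD cells), an Fmo2/F3/Gdf10 subset (262 and 1658), a Crabp1/Dkk2/Prdm1 subset (171 and 241) and a Grem1/Cyp26b1 subset (1371 and 1156). A Wif1/Hhip/Rspo3 subset held 496 and 55 cells, a Lrrc15/Col11a1 subset 558 and only 4, and 571 and 1127 cells fell in no subset. The marker genes differ in level between the libraries, Fmo2 going from 57.7 to 471 CPM and Dpp4 from 288 to 95.6 CPM, so the sizes of the subsets are not compared. Within each subset with 50 cells in both libraries, each member was compared. Of the 50 such ratios, 43 were lower in AD. The same members recur in every subset, so these ratios are not independent. Over all genes compared, the median log2 ratio (with 1 CPM added) ranged from −0.23 in the Wif1/Hhip/Rspo3 subset to 0.09 in the Dpp4 subset. The share of all genes lower in AD by any factor was not counted.

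In Ctrl, members were unevenly placed over the subsets. Fbn1 and Mfap5 were highest in the Dpp4 subset, at 1568 CPM (1545 to 1591) and 653 CPM (638 to 668), where Mfap4 was lowest, at 84.5 CPM (79.3 to 90.0). Mfap4 was highest in the Grem1/Cyp26b1 subset, at 1401 CPM (1380 to 1423), and so was Fbln5, at 336 CPM (325 to 346). Eln was high in the Grem1/Cyp26b1 subset, at 704 CPM (689 to 720), and in the Fmo2/F3/Gdf10 subset, at 778 CPM (741 to 816), although 249 of 1650 UMIs of the latter lay in 1 cell. Elastin and the MAGP2 gene thus peaked in different fibroblasts.

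The other members had their own order in Ctrl. Fbln1 and Fbln2 were highest in the Fmo2/F3/Gdf10 subset, at 397 CPM (371 to 425) and 927 CPM (887 to 969), and so was Lox, at 385 CPM (359 to 412). Mfap2 was highest in the Lrrc15/Col11a1 subset, at 430 CPM (415 to 445), a subset that also held smooth muscle genes at 1959 CPM. Emilin1 was highest in the Wif1/Hhip/Rspo3 subset, at 113 CPM (103 to 123). Fbln2 varied least, from 529 CPM (516 to 543) in the Dpp4 subset to its 927 CPM. Several neighbours in these orders had overlapping intervals, such as Mfap2 in the Wif1/Hhip/Rspo3 (257 CPM, 243 to 272), Grem1/Cyp26b1 (244 CPM, 235 to 253) and Crabp1/Dkk2/Prdm1 (235 CPM, 210 to 262) subsets.

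**Figure D3:**
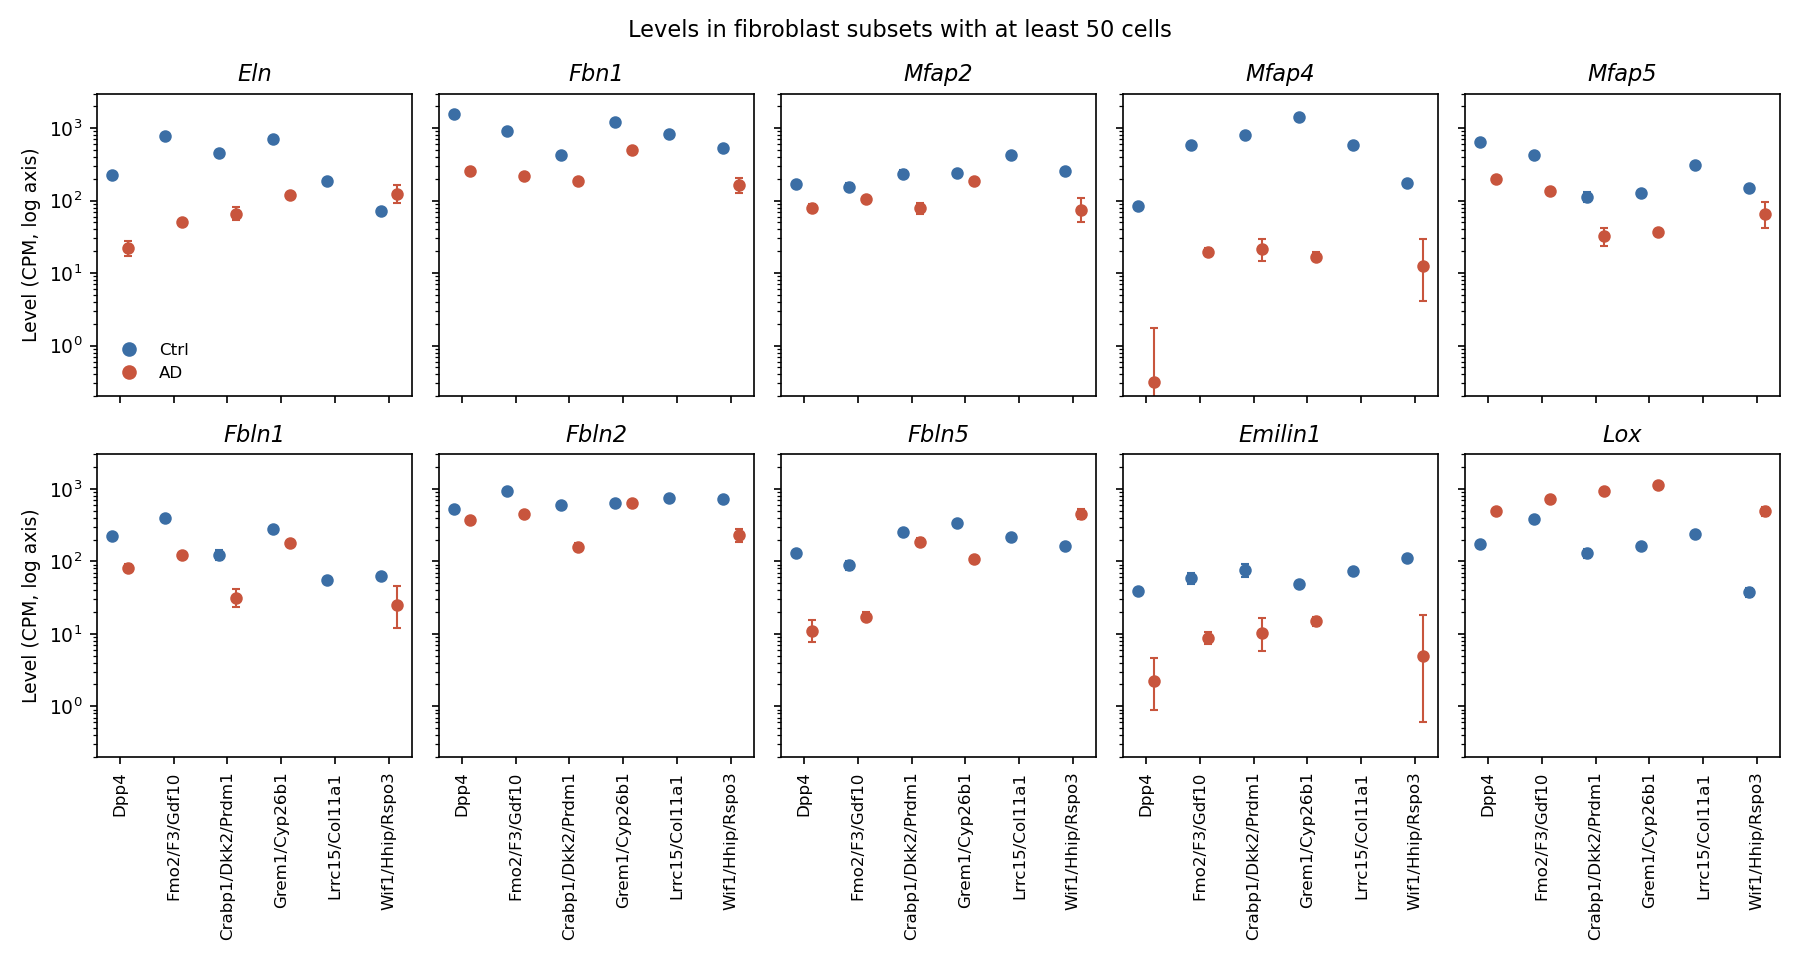
Levels of each member (CPM, log axis, 95% Poisson bars) in the fibroblast subsets of Ctrl (blue) and AD (red) that hold at least 50 cells. Red lies below blue in 43 of 50 pairs, Lox lies above it in each of the 5 subsets compared, and Eln and Fbln5 lie above it in the Wif1/Hhip/Rspo3 subset.

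The Dpp4 subset of AD was lowest in several members. Its interval was clear of the next AD subset for Mfap4 and Eln, but not for Emilin1 and Fbln5. Mfap4 had 1 UMI there, 0.317 CPM (0.00803 to 1.77), against 84.5 CPM in Ctrl, a ratio of 266 that rests on this 1 UMI, with a log2 interval for AD over Ctrl of −13.36 to −5.58. Emilin1 went from 39.6 to 2.22 CPM, Fbln5 from 130 to 11.1 CPM and Eln from 224 to 22.2 CPM. Fbln2 differed least, from 529 to 376 CPM. In this subset 8 of 10 members were at least 2-fold lower (11.2% of all genes compared there) and 1 was at least 2-fold higher (10.4%), Lox going from 176 to 495 CPM.

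The Grem1/Cyp26b1 subset showed a narrower set of differences, with 6 of 10 members at least 2-fold lower (10.7% of all genes) and Lox alone at least 2-fold higher (9.19%). Mfap4 went from 1401 to 16.9 CPM (14.7 to 19.4), a log2 ratio of −6.37, and Eln from 704 to 119 CPM (113 to 126). By contrast, Fbln2 stood at 647 CPM (632 to 662) for Ctrl against 638 CPM (624 to 652) for AD, and the interval of its log2 ratio, −0.07 to 0.03, included 0. Lox reached its highest AD level in these cells, 1118 CPM (1099 to 1136) against 165 CPM among Ctrl cells (157 to 172). In pooled UMIs of these AD cells, Fbln2 was thus near the Ctrl level while Mfap4 was 82.9-fold lower. At 1000 UMIs per cell, however, Fbln2 was found in fewer AD cells, 37.0% (34.2 to 39.8) against 43.8% (41.1 to 46.5) of Ctrl cells.

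In the Fmo2/F3/Gdf10 subset, 8 of 10 members were at least 2-fold lower (12.4% of all genes). Eln went from 778 to 50.3 CPM (46.5 to 54.4), a log2 ratio of −3.95 that rests in part on the 1 Ctrl cell named above, without which the Ctrl level was 666 CPM. Fbln5 went from 88.6 to 17.3 CPM and Mfap2 from 155 to 106 CPM. None was at least 2-fold higher (9.76%), Lox standing at 385 and 717 CPM. The erythroid genes stood at 2424 CPM in the Ctrl cells and 288 CPM in the AD cells of this subset, and their part in these values was not tested.

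The Crabp1/Dkk2/Prdm1 subset also had 8 of 10 members at least 2-fold lower (15.3% of all genes). Fbln2 went from 593 to 158 CPM and Fbln1 from 124 to 31.5 CPM, while Fbln5 stayed closer, at 250 CPM (224 to 278) and 185 CPM (164 to 207). Lox, the 1 member at least 2-fold higher (7.75%), went from 130 to 943 CPM. Erythroid genes stood at 3898 CPM in the Ctrl cells and 122 CPM in the AD cells of this subset. Col1a1, Col1a2, Col3a1, Dcn and Lum together had a median of 82 UMIs per Ctrl cell and 6 per AD cell. The part of either list in these values was not tested. When a cell had to hold UMIs of 1 list alone, 19 Ctrl and 39 AD cells were left, and the ratios of Emilin1 and Lox in this subset turned to 0.79 and −0.02.

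The Wif1/Hhip/Rspo3 subset differed from the others in elastin and fibulin-5. Eln stood at 72.1 CPM (64.5 to 80.2) for Ctrl against 125 CPM (50 UMIs, 92.8 to 165) for AD, and Fbln5 at 160 CPM (149 to 172) and 450 CPM (180 UMIs, 387 to 521). Lox went from 37.3 to 495 CPM, a 13.3-fold higher level, and it and Fbln5 were the 2 members at least 2-fold higher (10.6%). A further 7 members were at least 2-fold lower (21.3% of all genes there), with Emilin1 at 113 CPM in Ctrl and 2 UMIs in AD. Only 55 AD cells stand behind these values, and with cells of 1 list alone (31 Ctrl and 30 AD cells) the log2 ratios of Eln and Fbln5 turned to −2.56 and −1.64.

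Vessels carried elastic fibre genes of their own. Blood endothelium (Pecam1 and Cdh5) was gated in 76 Ctrl and 83 AD cells, lymphatic endothelium (Pecam1 and Prox1) in 243 and 263, and mural cells (Rgs5 and Notch3, around small vessels) in 173 and 115. Endothelial marker genes summed to 2107 and 2164 CPM in blood endothelium, and smooth muscle genes to 15330 and 10526 CPM in mural cells. Fibroblast genes were lower there than in fibroblasts but lower still in AD, at 1079 and 144 CPM in lymphatic endothelium.

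Fbln5 was a gene of endothelium as much as of fibroblasts. It stood in lymphatic endothelium at 367 CPM (337 to 399) for Ctrl against 110 CPM (97.0 to 124) for AD, and in blood endothelium at 341 CPM (291 to 396) and 186 CPM (158 to 216). All these levels lay above the fibroblast level of the same library. In mural cells it was near background, with 10 UMIs in Ctrl and 0 in AD. The log2 ratios were −1.74 in lymphatic and −0.88 in blood endothelium, both in the direction seen in fibroblasts. At 1000 UMIs per cell, 29.0% of Ctrl (23.4 to 35.2) and 9.77% of AD lymphatic cells (6.42 to 14.1) held an Fbln5 UMI. In blood endothelium the shares were 23.2% (13.9 to 34.9) and 20.5% (12.4 to 30.8), with overlapping intervals. There, 1 cell held 28 of the 170 Ctrl UMIs and 1 cell 26 of the 163 AD UMIs.

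Eln did not follow its fibroblast pattern in lymphatic endothelium, where it stood at 91.1 CPM (76.4 to 108) for Ctrl against 115 CPM (102 to 130) for AD, with log2 ratio 0.34 (0.04 to 0.65). In blood endothelium it stood at 124 CPM (62 UMIs, 95.3 to 159) and 235 CPM (206 UMIs, 204 to 269), but 1 AD cell held 130 of the 206 UMIs, and without the highest cell of each library the levels were 111 and 87.9 CPM. That cell held 13965 UMIs in all, 45 of the endothelial list and 0 of the fibroblast and smooth muscle lists. In AD, lymphatic endothelium was thus above fibroblasts in Eln (68.9 CPM), the reverse of their order in Ctrl.

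Emilin1 was highest in mural cells, at 161 CPM (135 to 190) for Ctrl against 95.0 CPM (76.9 to 116) for AD, above fibroblasts in both libraries. In lymphatic endothelium, whose vessels emilin-1 is known to anchor, it stood at 36.8 CPM (27.7 to 47.9) for Ctrl against 71.2 CPM (60.8 to 82.9) for AD, with log2 ratio 0.95 (0.50 to 1.42). Of all Emilin1 UMIs, fibroblasts held 67.4% in Ctrl and 43.5% in AD, lymphatic endothelium 1.47% and 20.2%, and mural cells 3.76% and 11.5%. For no other member did fibroblasts hold less than 66.2% of the UMIs of either library.

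Mural cells also stood apart in Fbn1, at 180 CPM (153 to 211) for Ctrl against 270 CPM (239 to 304) for AD, with log2 ratio 0.58 (0.30 to 0.88). Without the 6% of cells with the highest doublet scores, the levels were 103 and 274 CPM. Lox in mural cells went from 151 CPM (126 to 179) up to 643 CPM (594 to 695), log2 ratio 2.10 beside the 2.21 of fibroblasts. Fbln2 was a gene of blood endothelium too, at 449 CPM (392 to 512) for Ctrl against 214 CPM (185 to 247) for AD, and reached 29.7 and 6.00 CPM in mural cells.

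**Figure D4:**
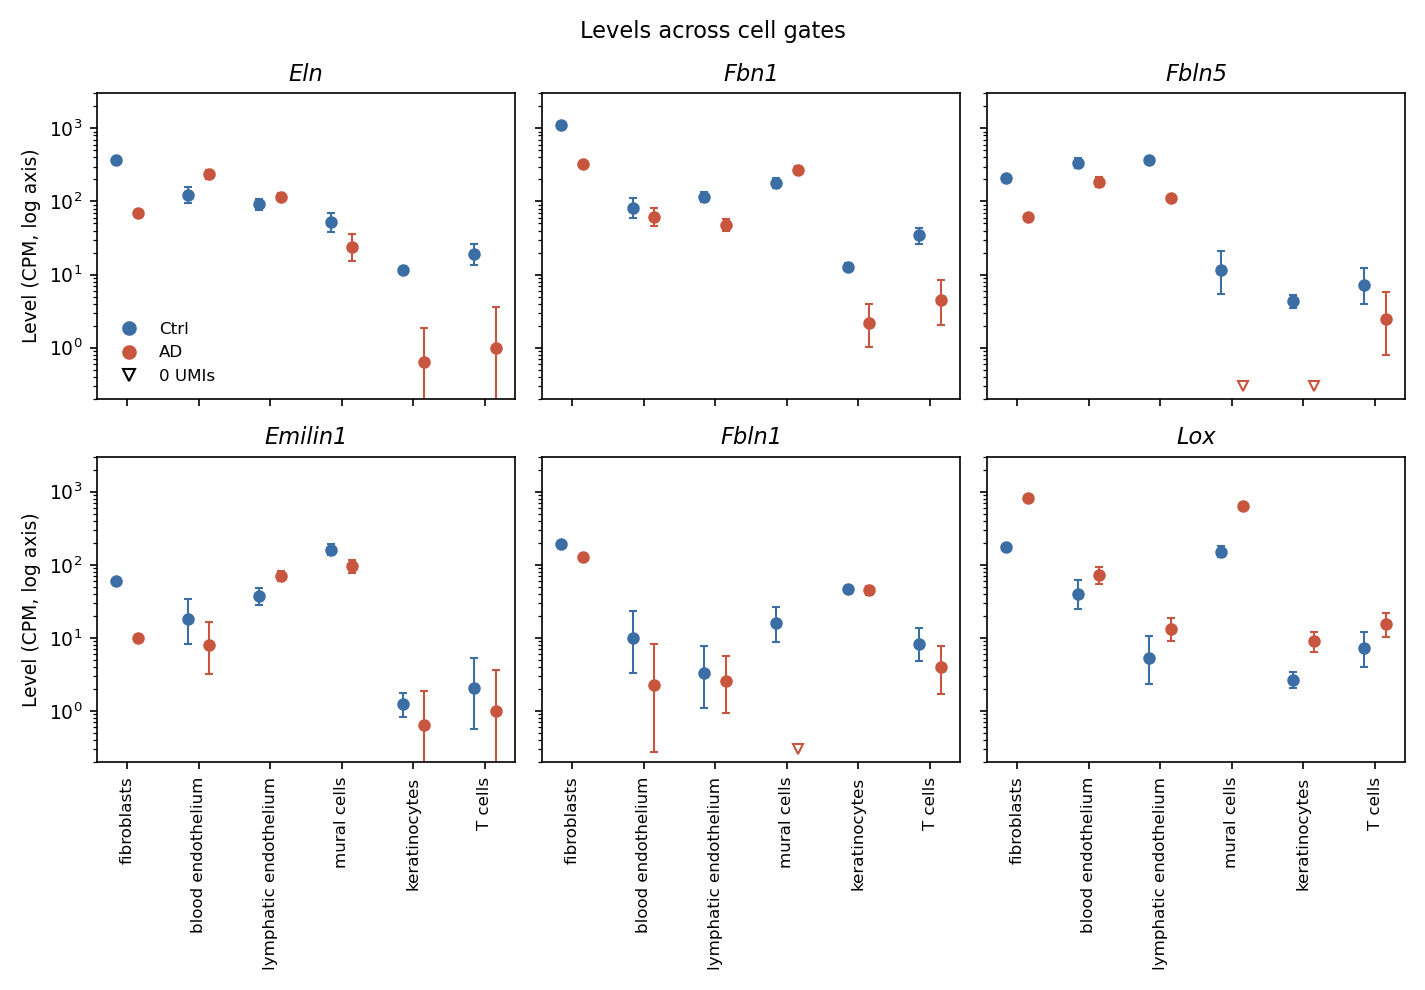
Levels of Eln, Fbn1, Fbln5, Emilin1, Fbln1 and Lox (CPM, log axis, 95% Poisson bars) in fibroblasts, vessel gates, keratinocytes and T cells of Ctrl (blue) and AD (red), with open triangles at the foot of a panel for 0 UMIs. Fbln5 is higher in endothelium than in fibroblasts of the same library, Emilin1 peaks in mural cells (161 and 95.0 CPM), Fbln1 is at 46.1 and 44.9 CPM in keratinocytes, and Lox is higher in AD in fibroblasts and mural cells.

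Keratinocytes (Dsp with keratins, 1541 Ctrl and 291 AD cells) held few member transcripts apart from Fbln1. Fbln1 stood there at 46.1 CPM (43.4 to 48.8) for Ctrl against 44.9 CPM (39.0 to 51.4) for AD. A UMI was found in 35.6% and 41.2% of cells, against 2.62% and 1.83% of the shallower T cells. At 1000 UMIs per cell, the shares were 3.46% and 5.92% of keratinocytes, against 0.177% and 0.307% of T cells. The log2 ratio of the Fbln1 level was −0.04 (−0.26 to 0.18), an interval that includes 0. The other 9 members ranged from 1.23 CPM (Emilin1) to 20.5 CPM (Fbln2) in Ctrl and from 0 (Fbln5) to 9.01 CPM (Lox) in AD. Schwann cells and melanocytes (Sox10, 137 and 102 cells) held Fbln5 at 73.2 CPM (55.9 to 94.2) for Ctrl against 121 CPM (88.9 to 162) for AD. Their Lox went from 17.1 to 116 CPM. In macrophages and dendritic cells (329 and 167 cells), the AD levels ran from 0 (Mfap4) to 7.5 CPM (Lox).

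The genes most like each member were found by Pearson correlation of log2 (CPM plus 10) over 27 points, the gates and subsets of both libraries with at least 50 cells, among 7824 genes. The points share libraries, cells of related kinds and ambient RNA, so the values describe likeness and no more. Fbn1 was most like Fstl1 (r = 0.978), Pcolce (0.956) and Col5a2 (0.95), Mfap2 like Ccdc80 (0.965), Gxylt2 (0.962) and Srpx (0.939), and Mfap5 like Arhgap20 (0.977), Gpc3 (0.975) and Ogn (0.961). Mfap4 was most like C1qtnf2 (0.929), Clec11a (0.924) and Lum (0.906). Fbln1 was nearest to Ism1 (0.936), Naaladl2 (0.918) and Adh1 (0.915), Fbln2 to Pcsk5 (0.92), Ddah2 (0.904) and Cd34 (0.901), and Lox to Mxra8 (0.907), Nnmt (0.899) and Tbx18 (0.892). The remaining members had no gene above 0.853. Eln was nearest to Arfgap3 (0.853), Ppic (0.852) and Ecm2 (0.849), Fbln5 to Lepr (0.841), Rftn2 (0.831) and Prkce (0.831), and Emilin1 to Nrep (0.847), Selenow (0.840) and Myl9 (0.820). Among the members themselves, Fbn1 and Mfap2 were closest (0.859) and Emilin1 and Lox least alike (0.182).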

How the data were processed

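Single-cell libraries of dorsal skin (1 Ctrl, 1 AD) were analysed from the count matrices the authors deposited, in which each value is the raw UMI count of a gene in a cell barcode from 10x 3′ libraries, without normalization. The authors counted with Cell Ranger on mm10. Its version is 5.0.0 in the matrix headers and 3.1.0 in the submitters' processing notes, and another in the methods. The notes also name Seurat 5.0.

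The filter in the methods of the study was applied (200 to 6000 genes, mitochondrial share no higher than 10%), which left 11399 of 12598 Ctrl barcodes (105195951 UMIs) and 8179 of 8778 AD barcodes (61645227 UMIs). Depth sets the precision of each level, and PCR and capture add error that the intervals do not cover. Gates were set by marker UMIs, and a fibroblast went to the subset list with the strictly highest sum of at least 2 UMIs. A gene was compared where 1 of the libraries reached 20 CPM, with 1 CPM added to ratios that are ranked or counted over all genes. A fold on 1 to 3 UMIs is given with its counting interval, and a share of 0 with the limit of 3 cells. Levels are compared between cells, not between genes. Intervals for ratios are conditional binomial ones.

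Python 3.11.15 with numpy 2.4.6, pandas 2.3.3, scipy 1.17.1, scanpy 1.11.5, anndata 0.12.19, leidenalg 0.10.2 and matplotlib 3.10.9 was used, and the scripts were tested on simulated data. Of 33904 gene identifiers, 32475 matched GENCODE M21. Levels of all 10 members were computed in each gate, though not every member is named for every gate. Named as well are up to 6 genes of each related list (3 highest and 3 lowest ratios) and the 3 genes most like each member. The members, lists and gates were chosen with earlier results of these data known. The bulk RNA-seq and contact dermatitis data were not analysed here. No doublets were removed, and leaving out likely ones was tried as an alternative. Protein sequences were not used here.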

Additional observations from a re-analysis of the deposited data

Results flagged for a closer look

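Every value here goes the opposite way from the same gene in all Pdgfra-positive fibroblasts, with a counting interval that leaves out 0, and the difference was not tested, since each condition has 1 library.

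Eln had a log2 ratio of AD over Ctrl of 0.92 in blood endothelium, 0.34 in lymphatic endothelium and 0.80 in the Wif1/Hhip/Rspo3 subset, against −2.42 in fibroblasts. Most of the AD Eln UMIs of blood endothelium lay in 1 cell (130 of 206), and the value turned to −0.34 without the highest cell of each library and to −0.43 without the highest 6% of doublet scores. The subset held 55 AD cells, and its value turned to −2.56 with cells of 1 list alone. Fbln5, at −1.76 in fibroblasts, had 0.73 in Schwann cells and melanocytes (73.2 and 121 CPM) and 1.49 in the Wif1/Hhip/Rspo3 subset (160 and 450 CPM), the latter turning to −1.64 with cells of 1 list alone. Fbn1 had 0.58 in mural cells (180 and 270 CPM), against −1.78 in fibroblasts. Emilin1 had 0.95 in lymphatic endothelium (36.8 and 71.2 CPM), against −2.56 in fibroblasts.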

How the results depend on the processing

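Alternatives covered the cell filter, the gate, scaling, depth, the subset rule, cells with high doublet scores and single cells with many UMIs. Counts on the lower side stayed within 1.5 times throughout, by 2 different measures. At least 2-fold lower were 6 to 8 of 10 members in fibroblasts. Lower by any factor were 43 to 45 of 50 ratios in subsets. Of the other values under an alternative, 299 stayed the same, 90 moved without turning, and 6 turned. They are the log2 ratios of single members, judged by the counting interval of the reported value. The number of related genes compared, judged by a factor of 1.5, was tallied with them. No ratio could be formed for Mfap4 where an alternative left 0 AD UMIs, in the Wif1/Hhip/Rspo3 subset with UMIs of 1 list alone and in the Dpp4 subset without the highest cell of each library. When a fibroblast had to hold UMIs of 1 list alone, the ratios turned to 0.79 for Emilin1 and −0.015 for Lox in the Crabp1/Dkk2/Prdm1 subset, and to −2.56 for Eln and −1.64 for Fbln5 in the Wif1/Hhip/Rspo3 subset, on 19 to 39 cells a library, and the highest subset stayed the same in 14 of 20 cases. Eln in blood endothelium turned to −0.34 without the highest cell of each library and to −0.43 without the 6% of cells with the highest doublet scores. The cause was not tested. In fibroblasts, weighting by the subset shares of Ctrl gave −6.06 for Mfap4, −0.93 for Fbln5 and −1.05 for Fbln1, and −6.26, −1.84 and −1.05 without the Wif1/Hhip/Rspo3 subset. Related genes at least 2-fold lower numbered 10, or 7 with 10 CPM added and 13 without the filter on low values.

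Scrublet called 395 Ctrl cells and 0 AD cells doublets, so leaving out its calls was not run, and the 6% of each library with the highest scores were left out in its place, an alternative chosen after seeing the data, as were those without the highest cell and both with the subset shares of Ctrl. No paired analysis was possible because each condition has 1 library, which also leaves the spread between animals unknown.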
